A study of Mus musculus with 6 samples.

Results

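TRBV5 is a V segment of the T-cell receptor beta chain (TCRB), and its rearrangements in T follicular regulatory (Tfr) cells of the mouse spleen are described here. They were taken as all listed rearrangements whose V segment name starts with TCRBV05, and all of them carried the same name. They came to 346 of 4409 listed rearrangements and 512 of 7043 templates over 6 samples. Templates are the deposited whole-number counts per rearrangement, and whether they count input molecules or reads is not said in the files. The 3 mice each contributed a pair of samples, superior and inferior in the titles, and these title words, which no label explains, serve as group names. All samples share the genotype Foxp3GFP, in which GFP reports Foxp3. No age, sex or treatment of the mice is stated in the labels. Per the labels' protocols, genomic DNA of sorted splenic Tfr cells went into survey-resolution immunoSEQ libraries for mouse TCRB. The files hold receptor sequences and no expression values, so markers of Tfr cells could not be checked in them.

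Tfr cells are regulatory T cells that enter B-cell follicles and restrain the germinal centre reaction. The beta chain of their receptor is assembled in the thymus by joining a D segment to a J segment and a V segment to that product. Enzymes trim the segment ends and add bases that no segment encodes, so the joint differs from cell to cell. The joint encodes complementarity-determining region 3 (CDR3), the loop that runs from a conserved cysteine of the V segment to a conserved phenylalanine of the J segment and lies over the peptide held by the MHC molecule. In the mouse, TRBD1 lies before the TRBJ1 cluster, and TRBD2 lies between the TRBJ1 and TRBJ2 clusters. Rearrangements in genomic DNA are counted without regard to how strongly a cell transcribes them.

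RefSeq annotation of GRCm38.p6, the mm10 assembly, places Trbv5 (gene ID 100124661) as a V segment at chr6:41062359-41062803. Trbv2, named here because its CDR3 starts with the same residues, lies at chr6:41047556-41047995. The TRBJ segments TRBJ1-1 and TRBJ2-7, the first and the last used with TRBV5 in genome order, start at positions 41533864 and 41543810 of the same chromosome.

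The 8 TRBV5 rearrangements that held 5 or more templates in a mouse are shown because they are the largest and carry the comparison of single clones. Each is the deposited run of 87 bases, 5′ to 3′ on the coding strand, with the CDR3 in capitals from the codon of the cysteine. The deposited run ends before the codon of the last CDR3 residue. The lower-case bases belong to TRBV5 and were the same in all 8, up to where each run starts.
Clone A, mouse 1, TRBJ2-7: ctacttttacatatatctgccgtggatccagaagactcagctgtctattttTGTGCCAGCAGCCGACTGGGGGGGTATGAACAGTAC
Clone B, mouse 1, TRBJ2-7: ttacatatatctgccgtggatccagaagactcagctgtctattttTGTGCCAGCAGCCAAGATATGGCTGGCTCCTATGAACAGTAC
Clone C, mouse 1, TRBJ1-3: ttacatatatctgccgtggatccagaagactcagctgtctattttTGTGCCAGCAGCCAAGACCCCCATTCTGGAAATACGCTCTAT
Clone D, mouse 2, TRBJ2-1: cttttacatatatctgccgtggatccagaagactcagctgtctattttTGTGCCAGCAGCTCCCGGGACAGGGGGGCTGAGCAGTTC
Clone E, mouse 2, TRBJ2-7: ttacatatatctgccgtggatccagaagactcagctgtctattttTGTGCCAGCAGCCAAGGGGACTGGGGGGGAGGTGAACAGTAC
Clone F, mouse 3, TRBJ2-7: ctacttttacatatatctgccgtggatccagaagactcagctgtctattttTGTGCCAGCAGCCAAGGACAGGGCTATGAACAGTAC
Clone G, mouse 3, TRBJ2-7: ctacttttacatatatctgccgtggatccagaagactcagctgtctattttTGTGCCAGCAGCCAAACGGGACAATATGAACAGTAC
Clone H, mouse 3, TRBJ1-3: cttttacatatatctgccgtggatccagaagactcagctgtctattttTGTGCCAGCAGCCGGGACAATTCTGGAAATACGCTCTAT

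The clones part from each other within the capitals. Over the 330 TRBV5 rearrangements of the 3 mice whose listed CDR3 started with cysteine, each counted once per mouse, the most frequent base held a majority at each of the first 17 CDR3 bases. That run is shown with the bases after the first 4 codons in capitals.
TRBV5 majority CDR3 start: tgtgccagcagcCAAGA
Base 13, the first of the capitals, was C in 322 of 330 rearrangements (97.6%), and base 14 was A in 74.5%. Clones B and C carried the whole run, clones E and F departed from it at its last base, and clones A, D, G and H departed earlier. The Trbv5 germline bases were not used here, so the run describes these rearrangements only.

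TRBV5 held the same rank among the V segments in every sample, and its share did not differ between superior and inferior samples beyond the spread between mice. In mice 1, 2 and 3 there were 46, 65 and 96 TRBV5 templates among 667, 1095 and 1136 in superior samples, and 108, 59 and 138 among 1370, 920 and 1855 in inferior samples. These counts gave TRBV5 shares of 6.90%, 5.94% and 8.45% of templates in superior samples and 7.88%, 6.41% and 7.44% in inferior samples. The ranges of both groups overlapped, and the superior sample was the lower of its mouse in mice 1 and 2 and the higher in mouse 3. The 95% Wilson intervals, which cover counting error only, reached from 4.68% in the superior sample of mouse 2 to 10.2% in the superior sample of mouse 3. The mean TRBV5 share was 7.09% ± 1.27 for superior samples and 7.25% ± 0.754 for inferior ones (SD over 3 mice).

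The log2 ratio of TRBV5 usage, superior over inferior, was -0.03 (SE 0.18) with an adjusted p of 0.977 in edgeR's quasi-likelihood test over 23 V segments. That test called 0.0% of the V segments at 0.05, with 2 below an unadjusted p of 0.05, and DESeq2 called 0. TRBV5 ranked 5 among the V segments by templates in all 6 samples, with a mean of 7.17% ± 0.937 (SD, n = 6). TRBV19, the next above it, averaged 9.97% ± 0.858, and TRBV16, the next below, averaged 5.24% ± 1.17. TRBV19 lay above TRBV5 in every sample, and TRBV16 lay below it in every sample. Over the 6 samples, TRBV15, TRBV13-1 and TRBV20 followed the TRBV5 share most closely, with Pearson's r of 0.81, 0.77 and 0.53. These correlations are descriptions over 6 points from 3 mice, and shares of a sample are bound to each other by their sum.

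Counted as distinct rearrangements, each listed sequence counting once whatever its templates, TRBV5 had 31, 49 and 67 in superior and 69, 39 and 91 in inferior samples. They made up 7.59% ± 1.07 of the rearrangements in superior and 7.80% ± 0.742 in inferior samples. The difference did not pass the two-sided exact permutation test (p = 0.9, n = 3 each). A clonotype with the same V segment, CDR3 bases and J segment can be listed as more than 1 rearrangement and then counts more than once. With such forms merged, the shares were 8.09% ± 1.14 in superior and 8.45% ± 0.679 in inferior samples (exact permutation p = 0.8). With 3 against 3 samples this test cannot give a p below 0.1, so it could not have passed 0.05 for any value set between the groups here. It also does not keep the samples of a mouse as a pair.

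**Figure D1:**
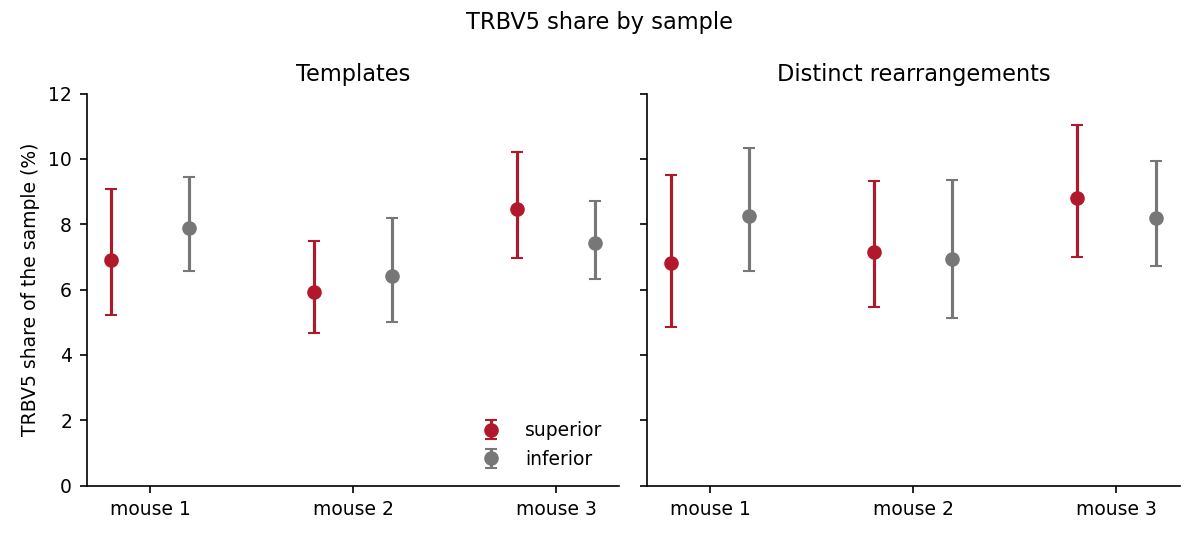
TRBV5 share of templates (left panel) and of distinct rearrangements (right panel) in percent, for the superior and inferior sample of each mouse, with 95% Wilson intervals. The points lie between 5.94% and 8.82%, and within each mouse the intervals of both samples overlap.

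TRBV5 joined 12 of the 14 J segments seen in the series, and no J segment passed the test against the other V segments. The largest difference in share was at TRBJ2-5, and the largest in ratio at TRBJ1-5. Both samples of a mouse were pooled and each rearrangement counted once, which left 333. TRBJ2-7, the last segment of the TRBJ2 cluster, was the most used, in 19.8% of TRBV5 rearrangements and 22.2% of those of all other V segments. TRBJ2-5 was next, in 18.9% of TRBV5 rearrangements and 12.1% of the others. TRBJ2-4 followed with 9.91% against 9.49%, TRBJ1-1 with 9.01% against 8.19%, and TRBJ1-3 with 8.11% against 5.63%. Below these came TRBJ2-1 with 7.81% against 9.85%, TRBJ1-4 with 6.01% against 6.50%, TRBJ2-3 with 6.01% against 7.21% and TRBJ2-2 with 5.71% against 6.86%. The rarest were TRBJ1-6 with 5.11% against 2.56%, TRBJ1-2 with 2.40% against 5.58% and TRBJ1-5 with 1.20% against 3.71%. TRBJ1-7 and the pseudogene TRBJ2-6 were not seen with TRBV5, where a count of 0 of 333 allows a share of up to 0.901%, and other V segments used them in 0.0767% and 0.0512% of rearrangements.

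In 4 of the 12 J segments the shares of the 3 mice did not overlap between TRBV5 and the other V segments. How often other V segments part from the rest in this way is not given here, so nothing is read from this count. TRBJ2-5 made up 15.5%, 14.5% and 23.5% of TRBV5 rearrangements in mice 1, 2 and 3, against 12.7%, 11.4% and 12.2% of the others. TRBJ1-5 made up 1.03%, 1.20% and 1.31% of TRBV5 rearrangements, against 4.16%, 2.81% and 4.0% of the others. The TRBV5 shares of TRBJ1-5 rest on 1, 1 and 2 rearrangements. TRBJ1-3 was higher with TRBV5 in every mouse, at 8.25%, 6.02% and 9.15% against 5.72%, 5.88% and 5.39%. TRBJ1-2 was lower with TRBV5 in every mouse, at 0%, 4.82% and 2.61% against 5.29%, 4.98% and 6.18%. The shares of the other 8 J segments overlapped.

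With the mouse as a block, edgeR's quasi-likelihood test called 0.0% of the 12 J segments for TRBV5 over all other V segments, and DESeq2 called 0. The same test run in turn on each of 14 V segments with 100 or more rearrangements called 1.79% of 168 comparisons. These calls were all for 1 V segment. How many of the 168 lay below an unadjusted p of 0.05 is not given, so the next count cannot be judged high or low. For TRBV5, 3 J segments were below an unadjusted p of 0.05. They were TRBJ1-5 with a log2 ratio of -1.63 (SE 0.59, adjusted p = 0.0749 in edgeR), TRBJ1-6 with 1.03 (SE 0.38, adjusted p = 0.0749) and TRBJ1-2 with -1.22 (SE 0.58, adjusted p = 0.181). TRBJ2-5, which added the most rearrangements, had a log2 ratio of 0.59 (SE 0.31, adjusted p = 0.217). The mean share of the whole TRBJ1 cluster was 32.3% ± 3.39 with TRBV5 and 32.0% ± 1.33 with all other V segments (SD, n = 3 mice).

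**Figure D2:**
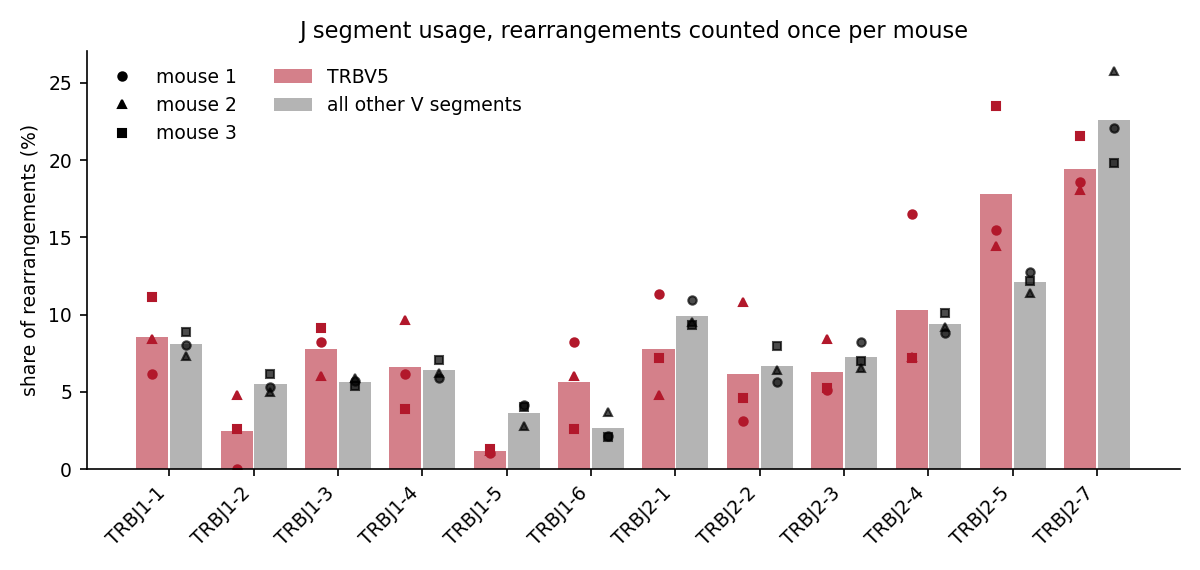
Share of rearrangements in percent by J segment, for TRBV5 (left bar of each pair) and all other V segments (right bar), as the mean of 3 mice with the value of each mouse as a point. TRBJ2-5 stands at 17.8% with TRBV5 against 12.1%, and TRBJ1-5 at 1.18% against 3.65%.

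By Jensen-Shannon distance, on which 0 means equal J usage, TRBV13-3 at 0.130, TRBV19 at 0.132 and TRBV26 at 0.164 were nearest to TRBV5. TRBV2 was the farthest of the 13 V segments compared, at 0.237. The TRBV5 profiles of different mice lay 0.207 to 0.271 from each other, above the distances from pooled TRBV5 to most other V segments. Each mouse's profile rests on fewer rearrangements than the pooled ones. TRBV2 used TRBJ2-5 in 6.73% and TRBJ1-5 in 5.05% of its rearrangements. TRBV5 over TRBV2 gave log2 ratios of 1.42 for TRBJ2-5 and -1.96 for TRBJ1-5, each with an adjusted p of 0.0660 in edgeR.

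No V-J pair with TRBV5 passed the test of superior over inferior samples. Of 172 pairs tested on templates, edgeR called 0.0%, with 7 below an unadjusted p of 0.05, and DESeq2 called 0. Of the 11 TRBV5 pairs among them none was below an unadjusted p of 0.05, and 5 were higher and 6 lower in superior samples. Their log2 ratios, superior over inferior, ran from -1.18 (SE 1.14) with TRBJ1-6 to 0.44 (SE 0.54) with TRBJ2-5. Without mouse 2 the ratio with TRBJ1-6 was -2.52 (SE 1.42, adjusted p = 0.962 in edgeR). TRBJ2-7 made up 29.0%, 14.3% and 25.4% of the TRBV5 rearrangements of the superior samples of mice 1, 2 and 3, against 15.9%, 23.1% and 18.7% in the inferior samples. The superior sample was the higher in mice 1 and 3, and the groups overlapped, with means of 22.9% ± 7.68 and 19.2% ± 3.6 (exact permutation p = 0.5, n = 3 each).

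The choice of D segment with TRBV5 was close to that of the other V segments. With a TRBJ2 segment, where both D segments can be used, 80 TRBV5 rearrangements had TRBD1, 115 had TRBD2 and 32 had no resolved D segment, of 227. TRBD1 made up 41.0% of the resolved ones with TRBV5 and 39.0% with all other V segments. By mouse it made up 30.5%, 38% and 50% with TRBV5 against 36.9%, 38.5% and 40.9% with the others, so TRBV5 was the lower in mice 1 and 2 and the higher in mouse 3. The mean difference of 0.727 percentage points (SE 7.10) had an adjusted p of 0.990 in limma, which called 0.0% of 20 V segments and left 3 below an unadjusted p of 0.05. Between superior and inferior samples the TRBD1 share was 36.0% ± 20.1 against 40.5% ± 6.49 (exact permutation p = 0.9, n = 3 each). With a TRBJ1 segment, 67 TRBV5 rearrangements had TRBD1, 8 had TRBD2 and 31 had none resolved, of 106. The share listed with TRBD2 there was 7.55% for TRBV5 and 6.03% for all other V segments. TRBD2 lies after the TRBJ1 cluster, and whether these D names are right was not tested. The same holds for the D names with TRBJ2 segments.

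The CDR3 of TRBV5 was longer than that of the other V segments in every mouse and every sample. It averaged 14.39, 14.31 and 14.29 residues in mice 1, 2 and 3, against 13.71, 13.79 and 13.75 residues with all other V segments. The groups did not overlap, and every TRBV5 mean lay above every mean of the others. The mean difference was 0.583 residues (SE 0.112), with an adjusted p of 4.04e-05 in limma over 20 V segments. The fit gave the same SE to all of them, so the SE is not the spread of TRBV5 alone. The same test called 35.0% of the 20 V segments, 20% as longer and 15% as shorter, so a difference in CDR3 length was common among V segments. TRBV24, TRBV2 and TRBV1 were the others called longer. The V segment that chose the members encodes the beginning of the CDR3, and how much of the length difference lies there was not tested. Without mouse 3, the TRBV5 difference was 0.605 residues with an adjusted p of 0.0632 in limma.

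The difference came from both tails of the distribution. TRBV5 ranged from 11 to 19 residues and the other V segments from 8 to 19, with a median of 14 in both. CDR3s of 12 or fewer residues made up 6.67% of TRBV5 rearrangements and 17.5% of the others. CDR3s of 16 or more made up 17.9% of TRBV5 rearrangements and 9.16% of the others. In mice 1, 2 and 3 the long class held 22.7%, 19.3% and 14% of TRBV5 rearrangements, against 8.12%, 10.3% and 9.15% of the others. All 3 TRBV5 shares lay above all 3 shares of the others.

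**Figure D3:**
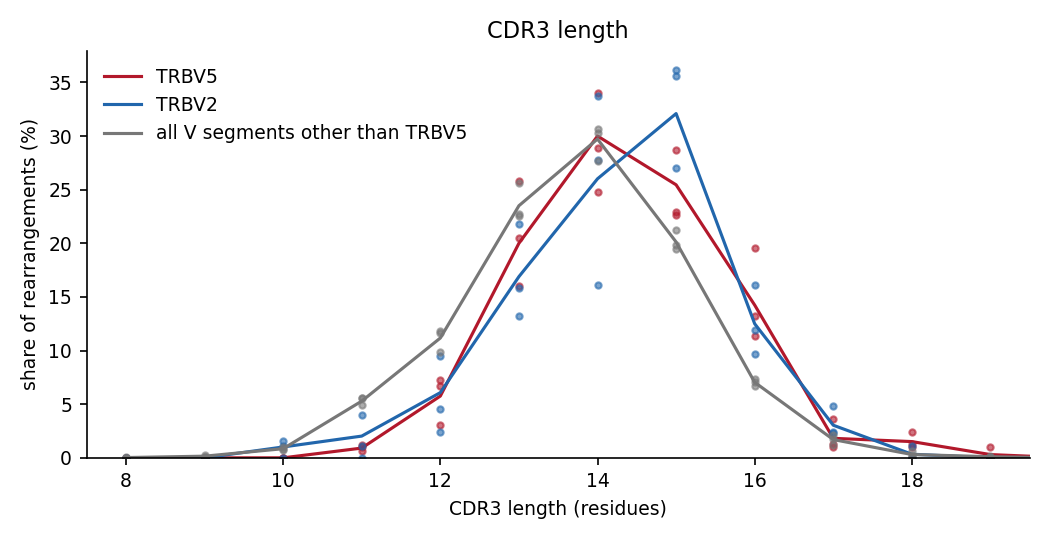
CDR3 length in residues against the share of rearrangements in percent, for TRBV5, TRBV2 and all V segments other than TRBV5, with lines for all mice together and a point for each mouse. TRBV5 lies below the others at 12 or fewer residues, with 6.67% against 17.5%, and above them at 16 or more, with 17.9% against 9.16%.

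The J segments contribute different numbers of residues, so lengths were also set side by side within each. TRBV5 was the longer by 1.26 residues with TRBJ1-4, 1.11 with TRBJ1-2 (8 TRBV5 rearrangements), 0.919 with TRBJ2-4 and 0.766 with TRBJ2-7. The difference was -0.0124 residues with TRBJ1-3 and -0.0893 with TRBJ1-6, the pair of J segments in which the sign turned. Weighted over J segments, the difference was 0.545 residues (SE 0.106, adjusted p = 3.65e-05 in limma). Between superior and inferior samples the TRBV5 mean was 14.30 ± 0.0970 against 14.36 ± 0.0338 residues (exact permutation p = 0.5, n = 3 each). With merged clonotypes it was 14.28 ± 0.0514 against 14.37 ± 0.0421 residues, lower in the superior sample of all 3 mice (exact permutation p = 0.1, the smallest possible).

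**Figure D4:**
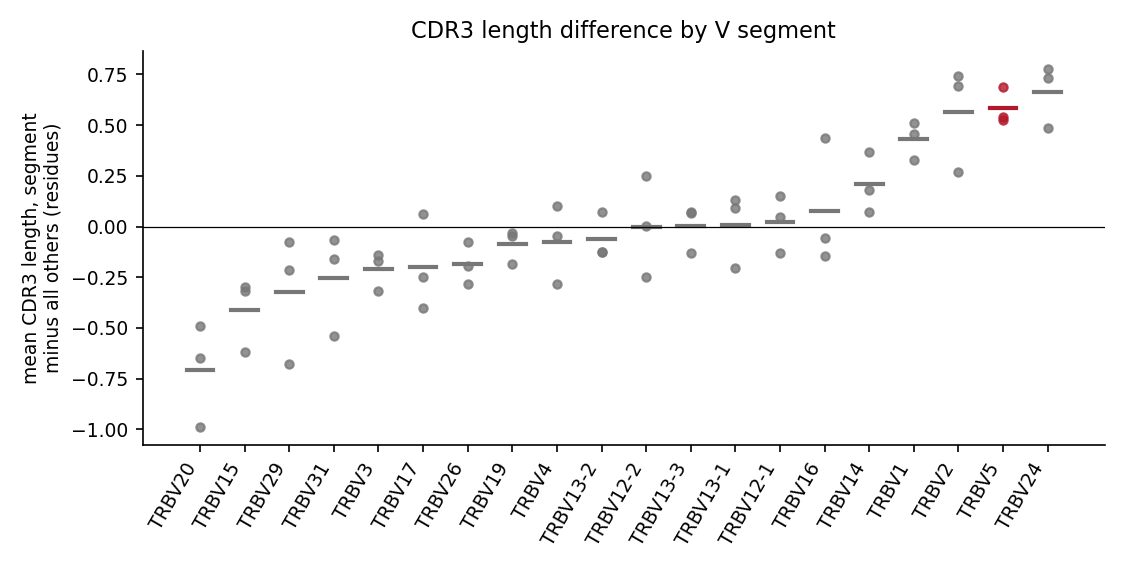
Mean CDR3 length of each of 20 V segments minus that of all other V segments, in residues, with a point per mouse and a line at their mean. TRBV5 stands second from the right at 0.583 residues, between TRBV2 at 0.567 and TRBV24 at 0.665.

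The first CDR3 residues of TRBV5 were nearly fixed through position 4. The start cysteine, alanine, serine, serine (CASS) was carried by 98.2% of TRBV5 rearrangements and 62.2% of the others. Position 5 was glutamine in 70.0% of TRBV5 rearrangements, proline in 14.2%, arginine in 6.06%, histidine in 4.55% and leucine in 3.03%. The codons of these 5 residues can all begin with C, the base found at position 13 of the CDR3. CASS followed by glutamine was carried by 69.1% of TRBV5, 76.4% of TRBV2 and 6.91% of all rearrangements other than TRBV5. The V segment that chose the members encodes the beginning of the CDR3, so these starts are given as a description with no test.

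How far a rearrangement matched the majority run from its first base varied. Of 330, 142 (43.0%) matched all 17 bases, 72 (21.8%) matched 13 and 36 (10.9%) matched 14. A further 32 matched 15, 32 matched 16, 7 matched 12 and 9 fewer. Those with all 17 bases averaged 14.5 residues, and those with 13 averaged 14.1. The same 17 bases led the CDR3 of 40.5% of TRBV2 rearrangements. An inserted base can match the run, so a count of bases matched does not say how many came from the V segment.

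Acidic residues were more frequent with TRBV5 than with the other V segments at CDR3 position 6, but not at the positions on either side. Aspartate or glutamate stood at position 6 in 55.7%, 44.6% and 54.0% of TRBV5 rearrangements in mice 1, 2 and 3, against 17.0%, 18.8% and 19.2% of the others. TRBV5 was above the others in every mouse, and TRBV2 carried an acidic residue there in 44.9%. At position 5, no TRBV5 rearrangement had an acidic residue, against 14.2% with aspartate and 4.15% with glutamate among the others. At position 7, aspartate stood in 4.85% and glutamate in 1.21% of TRBV5 rearrangements, against 5.11% and 1.88% of the others. In the CDR3 after the fifth and before the last 6 residues, glutamate made up 6.46% ± 3.08 of TRBV5 residues against 2.09% ± 0.224 of the others (SD, n = 3 mice). Its log2 ratio was 1.78 (SE 0.25). Aspartate made up 12.6% ± 0.860 against 7.01% ± 0.501, a log2 ratio of 0.81 (SE 0.13). Glycine, which D segments encode, was the lower, with 31.0% ± 1.95 against 36.2% ± 0.943, a log2 ratio of -0.23 (SE 0.04). This window starts at position 6, where bases of the V segment that chose the members may still be present, so these values are a description.

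At an adjusted p of 0.05 edgeR called these 3 residues, 15.8% of the 19 tested for TRBV5, and nothing is read from this share for the same reason. The same test on 14 V segments called 4.89% of 266 comparisons, 2.63% as higher and 2.26% as lower. Alanine, with a log2 ratio of -0.51 and an adjusted p of 0.0642 in edgeR, did not pass, nor did the other 15. With position 6 left out as well, edgeR called 0 of 18 residues and 1 was below an unadjusted p of 0.05, and the log2 ratios of glutamate and aspartate were 0.76 and 0.25. With position 5 and the sixth residue from the end added to the window instead, edgeR called 2 residues, and aspartate, glutamate and glycine were not among them, with log2 ratios of 0.13, 0.96 and -0.17 and adjusted p-values of 0.391, 0.227 and 0.134. Without mouse 2 edgeR called 0 of 19 and without mouse 3 only aspartate, while DESeq2 called only glutamate.

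A hydrophobic residue (isoleucine, leucine, valine, methionine, phenylalanine, tryptophan, cysteine or tyrosine) at both positions 6 and 7 was rare. It was found in 1.03%, 0% and 0.667% of TRBV5 rearrangements in mice 1, 2 and 3, against 1.31%, 1.28% and 1.10% of the others. The difference was -0.664 percentage points (SE 0.293) with an adjusted p of 0.206 in limma, which called 20% of 20 V segments for this feature. The called ones, TRBV1, TRBV15, TRBV17 and TRBV29, had differences of -1.24, -1.23, -1.19 and -1.21 points. These lie near minus the share of the others, so the called segments had hardly any such pairs. For so rare a feature nothing is read from the 20%. With 83 to 150 TRBV5 rearrangements per mouse, each share rests on at most 1 rearrangement.

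Most TRBV5 rearrangements had a single template, as did most of the others. Of the 346 listed TRBV5 rearrangements, 235 (67.9%) had 1 template, 78 (22.5%) had 2 and 33 (9.54%) had 3 or more. All other V segments had 65.1%, 22.2% and 12.7% in these classes. The largest TRBV5 clone of a sample held 4, 5 and 6 templates in the superior samples of mice 1, 2 and 3, and 8, 3 and 6 in the inferior samples. By sample, the share with 3 or more templates was higher with TRBV5 than with the others in the superior sample of mouse 1 (12.9% against 10.6%) and the inferior sample of mouse 2 (20.5% against 11.9%), and lower in the remaining 4 samples.

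Mean log2 templates per rearrangement were 0.40, 0.33 and 0.41 with TRBV5 in mice 1, 2 and 3, against 0.42, 0.44 and 0.48 with all other V segments. TRBV5 was the lower in each mouse, but the difference of -0.07 (SE 0.05) had an adjusted p of 0.433 in limma. That test called 15% of 20 V segments. TRBV2, which shares the CDR3 start of TRBV5, had values of 0.75, 0.91 and 1.02. After rearrangements with the same V segment, CDR3 bases and J segment were merged, the TRBV5 difference was -0.16, with an adjusted p of 0.0193 in limma. Merged and with TRBV2 left out of the other V segments, it was -0.12, with an adjusted p of 0.0707.

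**Figure D5:**
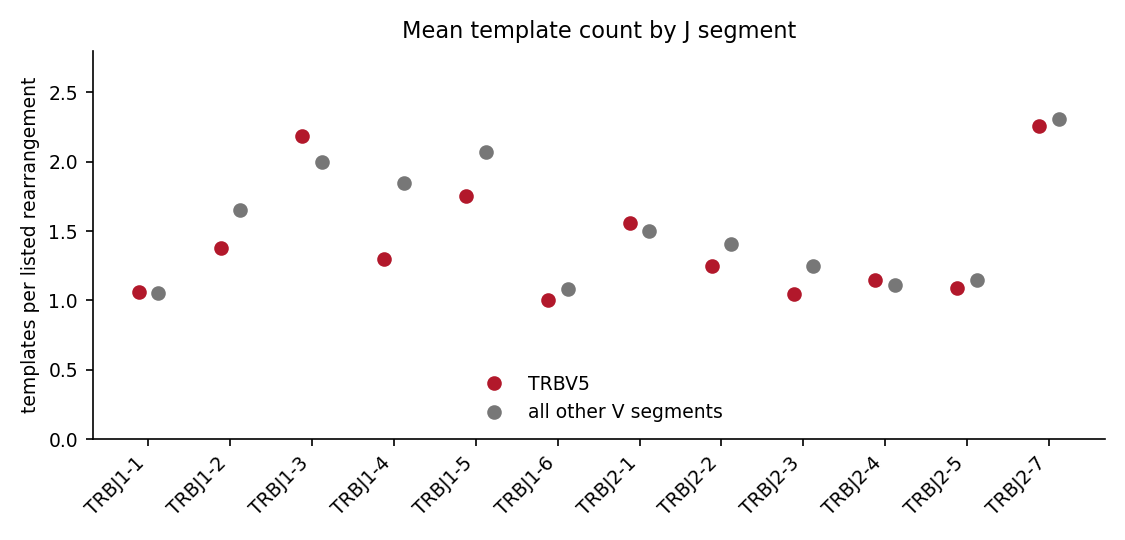
Templates per listed rearrangement by J segment, for TRBV5 and all other V segments, with all samples together. TRBJ2-7 stands at 2.26 for TRBV5 against 2.31, TRBJ1-3 at 2.19 against 2.00, and TRBJ1-6 at 1.0 against 1.09.

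Mean template counts differed between J segments, in TRBV5 as in the other V segments. These means pool the listed rearrangements of all samples, and no test was made of them. TRBV5 rearrangements with TRBJ2-7 averaged 2.26 templates and those with TRBJ1-3 averaged 2.19, while those with TRBJ1-1, TRBJ2-3, TRBJ2-5 and TRBJ1-6 averaged 1.06, 1.05, 1.09 and 1.0. The other V segments showed 2.31, 2.00, 1.05, 1.25, 1.15 and 1.09 for the same J segments. TRBJ2-7 therefore held 30.9% of TRBV5 templates but 19.8% of its rearrangements. Of the 8 clones shown above, A, B, E, F and G used TRBJ2-7, C and H used TRBJ1-3, and D used TRBJ2-1.

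TRBV5 rearrangements of superior samples averaged 1.48, 1.33 and 1.43 templates in mice 1, 2 and 3, against 1.57, 1.51 and 1.52 in inferior samples. The superior sample was the lower in each mouse, and the groups did not overlap, with means of 1.41 ± 0.0803 and 1.53 ± 0.0293 (exact permutation p = 0.1, the smallest possible, n = 3 each). The superior samples of mice 1 and 3 had fewer templates than the inferior ones. With every sample thinned to 667 templates the means were 1.31 ± 0.148 and 1.29 ± 0.0979 (exact permutation p = 0.8), and the sign turned. Clones of 2 or more templates held 49.3% ± 6.79 of TRBV5 templates in superior and 56.5% ± 2.23 in inferior samples (exact permutation p = 0.1), and 39.4% ± 11.4 against 37.8% ± 9.71 after thinning (exact permutation p = 0.9).

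None of the 8 clones passed the test between the superior and inferior sample of its mouse. Clone A had 2 superior and 8 inferior templates, which were 0.300% and 0.584% of their samples. Clone B had 4 superior and 2 inferior templates, clone D 5 superior and 1 inferior, clone E 2 superior and 3 inferior, and clone F 6 superior and 2 inferior. Clones C, G and H had 0 templates in the superior sample and 5, 6 and 5 in the inferior one. Their p-values in Fisher's exact test were 0.180, 0.0890 and 0.164, though all their templates lay in the inferior sample. At these depths a clone of that size seen only in the inferior sample could not pass. The lack of a call for them therefore does not show an even split. Fisher's exact test with adjustment over all clonotypes of a mouse called 0 of 3, 0 of 2 and 0 of 3 TRBV5 clones in mice 1, 2 and 3, with 0 below an unadjusted p of 0.05. It called 16.3%, 20.9% and 26.3% of all clonotypes tested in these mice. The lowest p among TRBV5 clones was 0.0600 for clone F (adjusted p = 0.164). With a minimum of 3 templates, Fisher's test called 2 of 158, 1 of 153 and 0 of 262 clonotypes in mice 1, 2 and 3. None of these was TRBV5, but 3 of 12 TRBV5 clonotypes of mouse 1 were then below an unadjusted p of 0.05. With merged clonotypes again no TRBV5 clonotype was called, and 1 in mouse 3 was below an unadjusted p of 0.05. How many of all clonotypes lay below it is not given for either setting, so nothing is read from these counts. This test compares a pair of libraries and covers counting error only.

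Few TRBV5 rearrangements were found in both samples of a mouse, at a rate near that of the other V segments. In mice 1, 2 and 3 there were 3 of 97, 5 of 83 and 5 of 153, or 3.09%, 6.02% and 3.27%, against 3.03%, 4.79% and 3.69% of the others. The difference of 0.291 percentage points (SE 0.859) had an adjusted p of 0.925 in limma, which called 0.0% of 20 V segments and left 1 below an unadjusted p of 0.05. Clones A, B, D, E and F were among these 13. Of the other 8, 6 had a single template in each sample, 1 had 2 and 1, and 1 had 1 and 3 in the superior and inferior samples.

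No TRBV5 clonotype was found in more than 1 mouse. By CDR3 amino acids and J segment, TRBV5 had 0 of 320, which allows a share of up to 0.938%, and the other V segments had 30 of 3431, or 0.874%. The share of the other V segments is below what the TRBV5 count allows, so a difference was not detectable at this depth. Of 14 V segments with 100 or more such clonotypes, TRBV13-1 and TRBV31 also had 0, and TRBV13-2 had the most, 8 of 399. Pairs of TRBV5 CDR3s of equal length and J segment that differed at 1 residue were found 18 times between mice and 20 times within a mouse. The number of pairs compared and the counts for other V segments are not given, so these are a description. Some pairs within a mouse differed only at CDR3 position 2, 3 or 4, and whether these are read errors was not tested.

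Some TRBV5 CDR3s recurred on other V segments. Of 317 TRBV5 combinations of CDR3 amino acids and J segment, 14 (4.42%) were also listed with another V segment, 6 of them in the same mouse. No such share is given for the other V segments, so it cannot be judged high or low. TRBV2, which shares the CDR3 start of TRBV5, was the partner in 9 of the 14 and TRBV16 in 3. Within TRBV5, 2 amino acid clonotypes were encoded by 2 different CDR3 base sequences in 1 mouse, with TRBJ1-3 in mouse 1 and with TRBJ1-1 in mouse 3. Among 320 clonotypes counted per mouse this was 0.625%, against 0.924% of 3462 for the other V segments.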

How the data were processed

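The deposited files list productive TCRB rearrangements of 87 bases for each sample, with V, D and J names, the CDR3 amino acids, a count and a fraction. The count, whole and not normalized as deposited, is called templates here, since the files do not say whether it is of templates or reads. The productive frequency, a fraction deposited beside each count, is that count over its sample's total and was not used further. Per the submitters' processing notes the build was mm10; for aligner and filters, "not given in the sources used here" applies. The RefSeq gene table held every V, D and J name listed.

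Usage was tested with edgeR 4.0.16 (quasi-likelihood, common dispersion, segments or pairs with 10 or more counts, total templates as library size) and alternatively with DESeq2 1.42.0. J segments and residues were counted on distinct rearrangements, once per mouse, with the mouse as a block. CDR3 length, D share, hydrophobic pairs, log2 templates and sharing were tested with limma 3.58.1 on the difference, in each mouse, between a V segment and all others, over segments with 10 or more rearrangements in every mouse. Adjustment was by Benjamini-Hochberg, at 0.05. Each SE given for edgeR is the absolute log2 ratio over the square root of the test's F statistic. It is not a separately estimated error and need not match the p-value. Single values were compared by a two-sided exact permutation test over 20 assignments, clones of 5 or more templates by Fisher's exact test. The permutation test reassigned single samples and took no account of the pairs, and no paired form of it was run. Thinned values are means of 200 draws of 667 templates. The 3 TRBV5 rearrangements whose CDR3 did not start with cysteine were left out of CDR3 features. The fits were tested on simulated data. R 4.3.3 and Python 3.11.15 were used.

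Samples with the same mouse number in their titles came from the same animal and are pairs. In mice 1, 2 and 3 the deviations of both samples from their group means, taken over V segment shares, had correlations of 0.0670, 0.665 and -0.348. The members and lists were chosen with earlier results of these data known. Named V segments were the neighbours of TRBV5 in mean share, the 3 nearest in J usage, the 3 most correlated in share, and TRBV2; others are named from counts of 5 or fewer, or as called or extreme in a comparison, after their values were seen. The rule for named clonotypes was the 3 largest of each sample and those in both samples; only the 8 tested by Fisher's exact test are shown. P-values of edgeR, limma and the permutation test measure the spread between these samples. In limma that spread is partly or fully pooled over V segments. For CDR3 length and log2 templates every V segment had the same SE (0.112 and 0.0522). P-values of Fisher's test cover counting error only.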

Additional observations from a re-analysis of the deposited data

How the results depend on the processing

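Each result was recomputed under the alternatives that apply to it, such as DESeq2, TMM scaling, merged clonotypes, template weights, other CDR3 windows and leaving out each mouse, which gave 273 values for 35 results. With the mouse as a replicate block, TRBV5 usage had a log2 ratio, superior over inferior, of -0.02 (adjusted p = 0.977 in edgeR); the block changed no call, and without it J usage again had 0 calls and the residues 3. The added alternatives, chosen after seeing the data, were weights by number, TRBV2 left out, the window after position 6, and merged or unblocked residue counts. Leaving out each mouse gave TRBV5 usage ratios of -0.18 to 0.044, with 0.016 without mouse 2, and rearrangement share differences of -0.618 to 0.423 points. For the TRBV5 pair with TRBJ2-7 the log2 ratio was -0.018 without mouse 1, within -0.064 to 0.62 as mice were left out. For TRBV5 over the others, the sign turned for TRBJ1-1 (-0.091 to 0.28 as mice were left out), TRBJ1-4 (0.10 with DESeq2, -0.44 to 0.36 as mice were left out), TRBJ2-2 (-0.82 to 0.15) and TRBJ2-4 (-0.44 to 0.42, and -0.014 merged). Residue calls were 1 with DESeq2, 0 to 3 with a mouse left out, 0 without position 6, and 2 other residues in the wider window. The CDR3 length difference was 0.531 to 0.612 residues with a mouse left out, and past the threshold except without mouse 3 (0.605). The TRBD1 difference was -0.292 points by templates, -0.496 merged, -0.667 merged without TRBV2, -3.14 in superior samples alone, and -3.47 to 4.30 with a mouse left out. The log2 template difference was -0.16 merged. Sharing differed by -0.180 to 0.647 points with a mouse left out. Thinning gave 0.0284 templates for the mean clone size and 1.52 points for the share in clones of 2 or more. Without mouse 1, TRBJ2-7 differed by -1.05 points and TRBD1 by 4.96 points, superior minus inferior; the highest and lowest values without another mouse were 9.89 and -9.61. Apart from thinning and merging, whose construction changes depth or clone number, the cause was not tested. The 3 mice and 31 to 91 TRBV5 rearrangements per sample limit what can be seen.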

Other observations

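Among TRBV5 clonotypes, defined in each mouse by the CDR3 bases and the J segment, 11 of 322 (3.42%) were listed as 2 or more rearrangements that differed outside the CDR3. For all other V segments this held for 365 of 3494 (10.4%). No test was made of this difference, and whether such forms are separate joints was not tested.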
